A study of Mus musculus with 32 samples.

Results

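Inhibitory checkpoint receptors are surface proteins that dampen T cell activation. The 8 described here, Pdcd1, Ctla4, Btla, Tigit, Havcr2, Lag3, Cd160 and Lilrb4a, were chosen by name from the 46517 genes of a bulk RNA sequencing table, and all 8 passed the filter on low values. The RNA came from sorted Pmel cells of C57BL/6 mice. These are CD8+ Thy1.1+ lymphocytes whose transgenic T cell receptor recognises a melanocyte antigen. The series concerns mice with melanoma-associated vitiligo, a loss of pigment that accompanies an immune response to melanoma. Vitiligo is not assumed here for the mice of every group, such as those that gave naive cells. All 32 libraries are labelled with an age of 16 weeks and form 8 groups of 4. Skin, lung and liver cells were taken 45 days after surgical removal of the tumor, and the lymph node memory cells are taken to be the draining lymph node cells that the series' design names for the same day, which their own labels do not state. Cells of the tumor itself and of its draining lymph node on day 12 are 2 further groups, and the last 2 are spleen cells and naive cells from spleen. For spleen, tumor and naive cells no day is named in the sources used here. Whether each library stands for a separate mouse, or for pooled mice, is likewise not stated, so the tests below measure the spread between libraries only.

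These receptors set limits on T cell responses in different ways. PD-1, the product of Pdcd1, CTLA-4 and BTLA belong to the CD28 family and carry tail motifs that bind phosphatases or, for CTLA-4, take shared ligands away from CD28. TIGIT competes with the activating receptor CD226, TIM-3 (Havcr2) and LAG-3 lack the classical inhibitory tail motif, CD160 binds the same ligand as BTLA, and the mouse Lilrb4a product gp49B carries inhibitory tail motifs and is best known from myeloid cells, mast cells and natural killer cells. Recently activated T cells express several of them for a short time, and T cells in tumors, which meet antigen continuously, often keep several of them on together.

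Promoters are shown for Pdcd1, Tigit and Havcr2, since Pdcd1 and Tigit each followed Havcr2 closely in their group means, so that the letters before their starts can be compared. RefSeq promoter windows were given for 6 of the 8 receptors, and the 250 bases before each start are printed in GRCm38.p6 coordinates, 5′ to 3′ on the gene's strand. Both strands were searched for the letters GGAAA (the core bound by NFAT, which T cell receptor signals activate), TGAGTCA or TGACTCA (AP-1), AAAGGTCA (NR4A) and CTTTGAA (TCF), and capitals mark matches to GGAAA or its reverse complement. No marked matches overlap.
Pdcd1 promoter, chr1:94052554-94052803, minus strand: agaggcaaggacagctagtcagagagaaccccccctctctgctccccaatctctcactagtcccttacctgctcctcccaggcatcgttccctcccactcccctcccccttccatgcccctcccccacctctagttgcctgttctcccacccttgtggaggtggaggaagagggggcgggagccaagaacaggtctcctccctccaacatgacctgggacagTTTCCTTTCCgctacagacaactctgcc
Tigit promoter, chr16:43664185-43664434, minus strand: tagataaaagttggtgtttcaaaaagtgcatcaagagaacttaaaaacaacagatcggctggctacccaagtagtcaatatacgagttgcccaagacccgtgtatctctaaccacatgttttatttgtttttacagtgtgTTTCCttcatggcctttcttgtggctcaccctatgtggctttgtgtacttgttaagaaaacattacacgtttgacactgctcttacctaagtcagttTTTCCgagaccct
Havcr2 promoter, chr11:46454681-46454930, plus strand: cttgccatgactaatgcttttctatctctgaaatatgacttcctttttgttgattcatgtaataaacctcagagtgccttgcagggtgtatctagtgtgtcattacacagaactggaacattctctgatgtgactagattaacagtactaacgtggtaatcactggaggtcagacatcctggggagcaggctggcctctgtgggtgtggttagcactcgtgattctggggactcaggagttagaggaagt

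The GGAAA letters occurred 2 times in the Pdcd1 window, in adjacent positions close to the start, 2 times in the Tigit window and not in the Havcr2 window. Ctla4 and 1 of the 2 Cd160 starts held 1 match each, and Btla held none. Such matches are common, since 55.6% of 32851 RefSeq windows of this length held GGAAA. The AP-1 letters were in no window of these receptors and in 4.5% of all windows. The NR4A letters were likewise in none, against 1.3% of all windows. The TCF letters occurred 2 times in 1 Cd160 window and in 4.5% of all windows. A match describes letters only and does not show a bound site.

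The values are TPM, shares of each library's RNA scaled for transcript length, so they can be compared between genes, but the read depth behind them is unknown. In bulk RNA, fewer cells of a type and less RNA per cell cannot be told apart. T cell identity was present in every group, with 16 of 16 genes such as the CD8 and CD3 chains at a mean of at least 1 TPM. Their sum lay between 3305 and 43494 TPM over libraries with a median of 28334, and 6 libraries lay under 0.5 of that median: tumor replicate 4, spleen replicate 4, skin replicate 4 and liver replicates 2, 3 and 4. Skin replicate 4, at 5601 TPM, stood furthest from the other skin libraries, which had 25508 to 34732 TPM. Cd4, absent from CD8 T cells as a rule, reached at most 11.02 TPM in any library. The spread between replicates over all genes was widest in liver, with a residual SD of 1.33 on the log2 scale, and narrowest in the day 12 lymph node, with 0.30.

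Each of the 8 receptors differed among the groups by limma's moderated F test with Benjamini-Hochberg adjustment, as did 46.9% of the 19738 genes tested. Lag3 had the lowest adjusted p, 3.77e-09, and Btla the highest, 0.0161. Group membership held 92.2% of the variance of log2(TPM + 1) for Lag3, 84.2% for Lilrb4a, 83.1% for Pdcd1 and 49.6% for Btla, with the others between 67.5% and 76.2%. The receptors thus ranged from sharply separated groups to largely overlapping ones, as the plot of values by library shows.

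**Figure D1:**
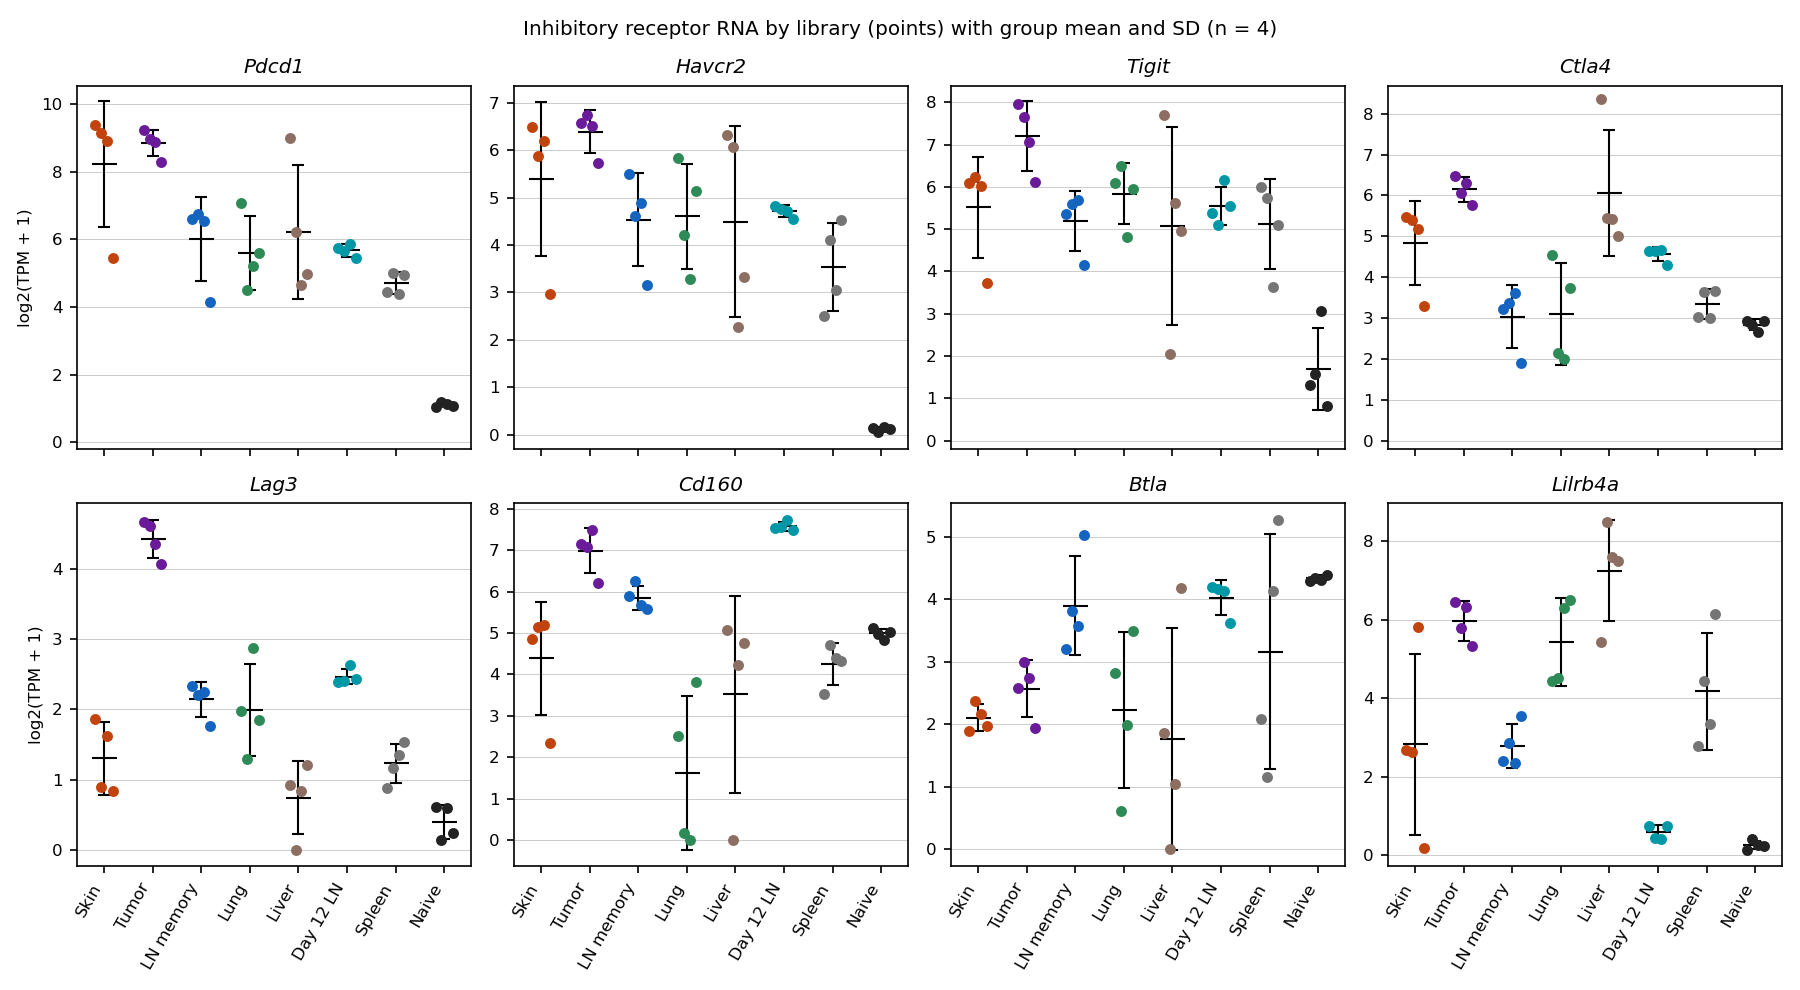
Receptor RNA as log2(TPM + 1), vertical axis, in 8 groups of Pmel T cells, horizontal axis; points are libraries and black lines give the group mean with its SD (n = 4). Lag3 was above 15 TPM in the 4 tumor libraries alone, Pdcd1 was high in tumor and in 3 of 4 skin libraries, and Lilrb4a was near 0 in day 12 lymph node and naive cells.

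Pdcd1 encodes PD-1, the receptor for the ligands PD-L1 and PD-L2 (chr1:94038305-94052553 in mm10, minus strand). It had 668, 571, 482 and 42.7 TPM in the 4 skin libraries and 601, 499.9, 472 and 315 TPM in the 4 tumor libraries. It had 95.5, 107, 92.6 and 16.7 TPM in lymph node memory cells, 135, 21.5, 36.0 and 47.8 TPM in lung, and 517, 73.0, 23.9 and 30.6 TPM in liver. The high levels were thus those of tumor, of 3 skin libraries and of 1 liver library, while the fourth skin library lay within the range of lung and liver. Levels were 52.9, 49.2, 57.3 and 42.4 TPM in the day 12 lymph node, 20.8, 31.3, 20.1 and 29.9 TPM in spleen, and 1.08, 1.27, 1.20 and 1.12 TPM in naive cells. The day 12, spleen and naive groups did not overlap one another. By mean the order was tumor, skin, liver, lymph node memory, lung, day 12 lymph node, spleen and naive, and the means of skin, at 441 ± 276 TPM, and tumor, at 472 ± 118 TPM (SD, n = 4 each), differed by less than the larger SD. The steps from liver to lymph node memory, on to lung and on to the day 12 lymph node likewise stayed within the larger SD, while those from the day 12 lymph node to spleen and from spleen to naive cells exceeded it. Skin lay above liver by slightly more than the larger SD, with overlapping libraries.

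Ctla4 encodes CTLA-4, which binds CD80 and CD86 (chr1:60887000-60915832, plus strand). It had 43.2, 41.0, 35.1 and 8.83 TPM in skin, 87.7, 65.7, 77.8 and 53.8 TPM in tumor, and 326, 42.6, 42.3 and 30.9 TPM in liver. Liver was the highest group by mean through 1 library, and its other 3 libraries overlapped skin and lay below tumor. Levels were 8.37, 9.39, 11.3 and 2.77 TPM in lymph node memory cells and 22.2, 3.41, 2.97 and 12.2 TPM in lung. The day 12 lymph node had 23.9, 24, 24.6 and 18.8 TPM, against 7.20, 11.51, 7.07 and 11.7 TPM in spleen and 6.63, 6.17, 5.32 and 6.68 TPM in naive cells. Unlike Pdcd1, which was near 1 TPM there, Ctla4 RNA was thus present in naive cells at a level that the lymph node memory and lung groups overlapped. In the order of means, liver, tumor, skin, day 12 lymph node, lung, spleen, lymph node memory and naive, neighbours differed by more than the larger SD at the steps from tumor to skin, without overlap, and from the day 12 lymph node to lung, with overlap. Ctla4 is also a regulatory T cell gene, and the transcription factor of those cells, Foxp3, was between 0 and 2.39 TPM in all 32 libraries. It was 0.48 TPM in liver replicate 1, the library with 326 TPM of Ctla4. The 7 markers of CD4 and regulatory T cells summed to 127 TPM there and to 46.1 to 66.6 TPM in the other liver libraries. The list holds Cd40lg, Il2ra and Tnfrsf4, which activated CD8 T cells express too. It also holds Cd4, at 4.68 TPM in that library and 0 to 11.02 TPM in the other liver libraries. The part of regulatory T cells in the Ctla4 values was not tested.

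Btla encodes BTLA, a receptor for the ligand HVEM (chr16:45224315-45257670, plus strand), and its order of groups differed from that of Pdcd1. Skin had 2.71, 4.18, 3.50 and 2.91 TPM, tumor 5.0, 7.0, 5.69 and 2.82 TPM, and lymph node memory cells 8.18, 13.0, 10.8 and 31.5 TPM. Lung had 6.09, 0.52, 2.95 and 10.3 TPM, and liver had 2.61, 0, 1.05 and 17.1 TPM. The day 12 lymph node had 17.4, 16.9, 16.5 and 11.2 TPM, spleen 3.25, 1.22, 16.5 and 37.6 TPM, and naive cells 18.5, 19.4, 18.8 and 20.0 TPM. Skin was thus lowest and naive cells highest by mean, while spleen was spread across the whole range. The means ran in the order naive, lymph node memory, day 12 lymph node, spleen, liver, tumor, lung and skin, and no neighbours differed by more than the larger SD. BTLA is abundant on B cells, and the 12 B cell markers summed to 313, 973, 493 and 3024 TPM in the 4 lymph node memory libraries and to 1054, 1204, 11478 and 7955 TPM in the 4 spleen libraries. In skin they summed to 24.3 to 133 TPM and in tumor to 150 to 289 TPM. In the groups by list, 12 of 12 markers had a mean of at least 1 TPM in lymph node memory, lung and spleen, 11 in liver, 10 at day 12, 8 among naive libraries, and 7 in skin and in tumor. The part of B cells in the Btla values was not tested.

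Tigit encodes the receptor that competes with CD226 for CD155 (chr16:43648867-43664146, minus strand). It had 66.9, 73.7, 64.2 and 12.3 TPM in skin, 249, 201, 133 and 67.9 TPM in tumor, and 39.9, 47.0, 51.0 and 16.7 TPM in lymph node memory cells. Lung had 66.9, 89.5, 27.3 and 60.9 TPM, and liver 208, 3.11, 48.0 and 30.2 TPM. The day 12 lymph node had 40.7, 33.3, 70.1 and 46.1 TPM, spleen 63.0, 52.6, 11.4 and 33.0 TPM, and naive cells 1.49, 1.98, 7.33 and 0.77 TPM. All antigen-experienced groups except liver lay above the naive libraries, and 3 of 4 tumor libraries lay above those of the other groups except 1 liver library. The means ran in the order tumor, liver, lung, skin, day 12 lymph node, spleen, lymph node memory and naive, and of these neighbours only lymph node memory and naive cells differed by more than the larger SD.

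Havcr2 encodes TIM-3, a receptor for phosphatidylserine and galectin-9 among others (chr11:46454935-46481255, plus strand). It had 88.7, 58.3, 72.0 and 6.87 TPM in skin and 94.4, 106, 89.9 and 52.0 TPM in tumor. Lymph node memory cells had 44.1, 23.5, 28.5 and 7.95 TPM, lung 55.8, 17.4, 8.69 and 34.1 TPM, and liver 78.9, 66.2, 3.85 and 8.99 TPM. All tumor libraries, 3 skin libraries, 2 liver libraries and 1 lung library were thus above 50 TPM, and lung and liver were widely spread. Day 12 cells had 27.5, 26.2, 25.3 and 22.3 TPM, spleen 4.67, 16.2, 7.25 and 22.02 TPM, and naive cells, near 0, had 0.10, 0.03, 0.12 and 0.08 TPM. All day 12 libraries lay above every spleen library, and lung and liver overlapped spleen. The order of means was tumor, skin, liver, lung, lymph node memory, day 12 lymph node, spleen and naive, and the steps from day 12 to spleen and from spleen to naive exceeded the larger SD, without overlap.

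Lag3 encodes LAG-3, which binds MHC class II (chr6:124904361-124911705, minus strand). It had 2.65, 0.85, 2.07 and 0.78 TPM in skin, against 24.5, 23.4, 19.4 and 15.8 TPM in tumor. Lymph node memory cells had 4.03, 3.63, 3.77 and 2.40 TPM, lung 2.94, 1.45, 6.33 and 2.59 TPM, and liver 0.90, 0, 0.78 and 1.30 TPM. The day 12 lymph node had 4.26, 4.29, 5.19 and 4.42 TPM, spleen 0.84, 1.24, 1.54 and 1.89 TPM, and naive cells 0.53, 0.10, 0.51 and 0.18 TPM. Every tumor library stood above every library of the other groups, the day 12 lymph node followed by mean, and skin overlapped spleen. In the order of means, tumor, day 12 lymph node, lymph node memory, lung, skin, spleen, liver and naive, the steps from tumor to day 12 and from day 12 to lymph node memory exceeded the larger SD without overlap, and that from spleen to liver with overlap.

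Cd160 encodes a receptor that shares the ligand HVEM with BTLA and also binds MHC class I (chr3:96798763-96829351, minus strand). It had 28.1, 34.6, 35.3 and 4.10 TPM in skin, against 141, 135, 179 and 73.3 TPM in tumor. Lymph node memory cells had 58.7, 74.9, 50.1 and 46.7 TPM, lung 4.72, 0.12, 0 and 13.2 TPM, and liver 32.9, 0, 17.7 and 25.9 TPM. The day 12 lymph node, the highest group by mean, had 183, 187, 212 and 178 TPM, spleen 10.4, 25.1, 20.2 and 19.2 TPM, and naive cells 33.8, 30.6, 27.7 and 31.3 TPM. Cd160 RNA was thus present in naive cells, at a level close to that of 3 skin libraries and one that spleen did not reach. The means ran in the order day 12 lymph node, tumor, lymph node memory, naive, skin, liver, spleen and lung, with steps beyond the larger SD between the first 4 groups and from spleen to lung, of which only that from lymph node memory to naive was without overlap. The gene shares exon bases with Pdzk1 on the other strand, which was between 0 and 1.95 TPM in all libraries.

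Lilrb4a encodes gp49B (chr10:51490956-51496611, plus strand). It had 5.37, 5.14, 55.3 and 0.14 TPM in skin, 86.2, 54.6, 78.5 and 39.0 TPM in tumor, and 4.31, 6.20, 4.08 and 10.8 TPM in lymph node memory cells. Lung had 20.7, 21.7, 77.5 and 89.1 TPM, liver 42.2, 360.1, 193 and 178 TPM, and spleen 5.83, 20.5, 9.19 and 70.2 TPM. Levels were near 0 in the day 12 lymph node, at 0.68, 0.35, 0.34 and 0.67 TPM, and in naive cells, at 0.10, 0.33, 0.19 and 0.18 TPM. Liver was thus the highest group by mean, lung overlapped tumor, and the third skin library and the fourth spleen library stood above the rest of their groups. The 18 myeloid markers summed to 8627 TPM in that skin library and to 405 to 866 TPM in the other 3. Lung had 1714 to 11682 TPM of them and liver 1978 to 17779 TPM. That spleen library had 9408 TPM and the other 3 had 910 to 1576 TPM. In tumor the sum was 547 to 738 TPM, below each spleen library and above each day 12 library. Of single markers in tumor, Csf1r, a macrophage receptor, was 0.25 to 3.80 TPM. Lyz2 was 19.95 to 146 TPM there, against 6.62 to 19.5 TPM at day 12. A mean of at least 1 TPM was reached by 18 of 18 myeloid markers in skin and lung, 17 in tumor, liver and spleen, 14 in lymph node memory cells, 7 at day 12, where 2 were at 0 in all libraries, and 1 in naive cells. The part of myeloid RNA in the Lilrb4a values was not tested. By mean the order was liver, tumor, lung, spleen, skin, lymph node memory, day 12 lymph node and naive, with the last 2 steps beyond the larger SD and without overlap. Values of Lilrb4a are also uncertain because the neighbouring near-identical gene Lilr4b could take or give reads, and because Lilrb4a shares exon bases with the readthrough gene Gm49339 and the antisense gene Gm40645. Lilr4b had a like pattern, with 64.3 to 309 TPM in liver, 22.3 to 56.98 TPM in tumor and 0.52 to 0.61 TPM in the day 12 lymph node.

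**Figure D2:**
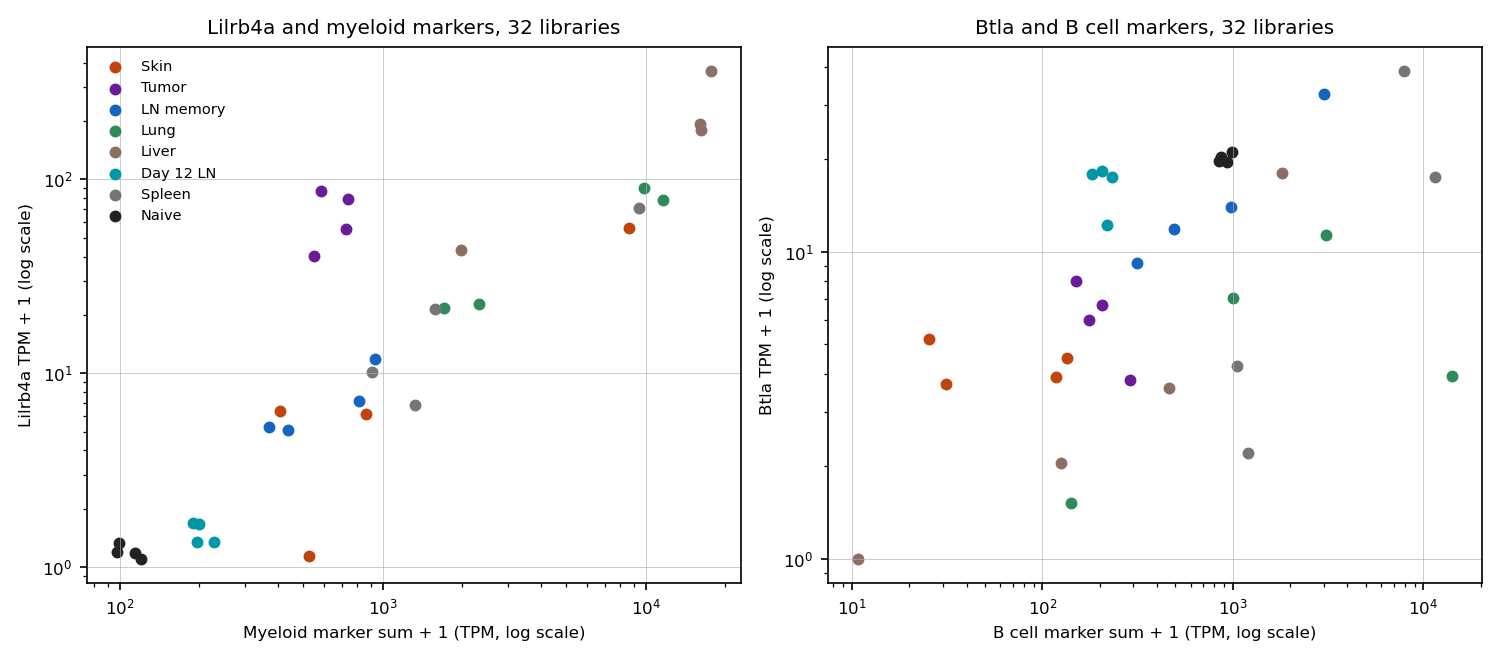
Left, Lilrb4a (TPM + 1) against the sum of 18 myeloid markers; right, Btla (TPM + 1) against the sum of 12 B cell markers; each point is 1 of 32 libraries, coloured by group, and all axes are logarithmic. At myeloid sums of 405 to 866 TPM 3 skin libraries held 0.14 to 5.37 TPM of Lilrb4a, while the 4 tumor libraries held 39.0 to 86.2 TPM at sums of 547 to 738 TPM. The part of myeloid RNA in these values was not tested.

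Day 12 cells of the tumor-draining lymph node were compared with naive cells. Of the 8 receptors, 5 rose and none fell, where 5.95% of all genes tested rose and 5.14% fell. Havcr2 rose by 4.6 ± 0.74 on the log2(TPM + 1) scale (SE, n = 4 each, adjusted p = 4.48e-05), a scale that understates the change of genes with low values. Each SE of a change comes from the fit of all 32 libraries and does not measure the spread of the 2 groups alone. For Ctla4 it was 0.583, against 0.109 in a fit of day 12 and naive cells alone and 0.742 in one of liver and spleen. Pdcd1 rose by 4.56 ± 0.76 (adjusted p = 6.33e-05), Tigit by 3.85 ± 0.77 (adjusted p = 0.00068), Cd160 by 2.59 ± 0.80 (adjusted p = 0.0313) and Lag3 by 2.07 ± 0.33 (adjusted p = 4.21e-05). These 5, Ctla4 and Lilrb4a were higher in every day 12 library than in any naive library, and Btla was lower in every one. Lilrb4a did so at means of 0.51 and 0.20 TPM. Both groups had narrow spreads over all genes, with residual SDs of 0.30 at day 12 and 0.39 in naive cells. The share of all genes without overlap was not computed here or in the later comparisons, so such counts are description only. Ctla4, higher by 1.72 ± 0.58, missed the threshold (adjusted p = 0.0534) but passed it in 7 of 9 other settings, for example at 5.73e-06 in a fit of both groups alone and 0.0376 with a replicate block, and Btla and Lilrb4a differed by -0.31 and 0.33. The receptors' median was 2.33, against -0.191 for all genes. The Cd160 call was lost when any 1 of the 8 libraries was left out (adjusted p = 0.0611 to 0.0768), with a pseudocount of 0.1 (adjusted p = 0.257), with no filter on low values (0.0667) and with scaling to T cell identity (0.0521).

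Among genes around the receptors, 3 of 19 other inhibitory receptors rose in day 12 cells, namely Klrc1, which encodes NKG2A, by 6.65 ± 0.59, Cd22 by 3.74 ± 0.82 and Cd200r1 by 2.29 ± 0.72. Cd22 is known as a B cell receptor, and the B cell sum was 182 to 231 TPM at day 12 and 845 to 987 TPM in naive cells. Of 23 transcription factors that control the receptors, 7 rose and 2 fell. Tbx21, which encodes T-bet, rose by 6.08 ± 0.57 to 83.7 TPM, against 0.25 TPM in naive cells, Tox2 rose by 3.95 ± 0.38, and Bach2, a repressor of effector genes, fell by 3.84 on the log2 scale. Of 12 costimulatory counterparts, 3 rose and 2 fell, led by Tnfrsf4 (OX40) at 4.47 ± 0.78, Cd40lg (CD40 ligand) at 4.39 ± 0.42 and Icos at 2.95 ± 0.53. Of 16 ligands, 3 rose and 1 fell: Lgals3, which encodes galectin-3, rose by 9.21 ± 0.55, Pdcd1lg2 (PD-L2) rose by 2.30 ± 0.61, and Tnfrsf14, which encodes HVEM, the ligand of BTLA and CD160, fell by 1.64. None of 19 phosphatases and adaptors passed the test in limma. Medians of these 5 lists were 0.84 for other inhibitory receptors, 0.67 for transcription factors, 0.57 for costimulatory genes, 0.18 for ligands and 0.11 for phosphatases and adaptors.

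Spleen cells were also set against naive cells. In spleen, 4 of 8 receptors rose and none fell, where 3.62% of all genes rose and 2.46% fell. Lilrb4a rose by 3.92 ± 0.78 (adjusted p = 0.00151), Pdcd1 by 3.59 ± 0.76 (adjusted p = 0.0027), Havcr2 by 3.43 ± 0.74 (adjusted p = 0.00356) and Tigit by 3.42 ± 0.77 (adjusted p = 0.00492), and for none of these did spleen libraries overlap naive ones. Lag3 was higher by 0.83 ± 0.33 (adjusted p = 0.154) and Ctla4 by 0.50 ± 0.58 (adjusted p = 0.709) in spleen. Btla was lower there by -1.17 ± 0.72 (adjusted p = 0.401) and Cd160 by -0.75 ± 0.80 (adjusted p = 0.673). The receptors' median was 2.128, against -0.05 for all genes. The 4 calls held with each library left out in turn. Beside Lilrb4a, the myeloid sum was 910 to 9408 TPM in spleen and 96.3 to 119 TPM in naive cells, and its part in the change was not tested.

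Of the 19 other inhibitory receptors 8 rose in spleen, led by Klrc1 at 8.48 ± 0.59, Siglecg at 4.0 ± 0.72 and Cd22 at 3.84 ± 0.82. Siglecg and Cd22 are known as B cell receptors, and the B cell sum was 1054 to 11478 TPM in spleen, against 845 to 987 TPM in naive cells. Of 23 transcription factors, 3 rose, led by Tbx21 at 5.98 ± 0.57, and 2 fell: Tcf7, which encodes TCF-1, at -2.71 ± 0.61 and Tox at -2.21 ± 0.61. Cd40lg was the single costimulatory gene that rose, by 4.24 ± 0.42. Ligands that rose were Lgals3 at 10.31 ± 0.55, Apoe at 6.44 ± 0.98 and Cd86 at 2.40 ± 0.47, and Cbl, a ubiquitin ligase, fell by 1.94 among the phosphatases and adaptors. Medians for spleen were 2.262 for other inhibitory receptors, 0.591 for ligands, -0.094 for phosphatases and adaptors, 0.483 for costimulatory genes and 0.194 for transcription factors.

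Tumor cells were compared with day 12 lymph node cells. Of the 8 receptors 3 rose and none fell, where 4.55% of all genes rose and 2.42% fell. Lilrb4a rose by 5.38 ± 0.78 (adjusted p = 3.14e-05), Pdcd1 by 3.17 ± 0.76 (adjusted p = 0.00853) and Lag3 by 1.96 ± 0.33 (adjusted p = 0.000275). Havcr2 and Ctla4 were higher in every tumor library than in any day 12 library, by 1.68 ± 0.74 and 1.58 ± 0.58, but missed the threshold (adjusted p = 0.182 and 0.0986), and Tigit was higher by 1.65 ± 0.77 (adjusted p = 0.207). Btla was lower in every tumor library, by -1.46 ± 0.72 (adjusted p = 0.236), and Cd160 differed by -0.59 ± 0.80 (adjusted p = 0.724). Over the 8 receptors the median was 1.664, against 0.027 for all genes. A fit of these 8 libraries alone called 7 of 8 receptors. Residual SDs were 0.51 in tumor and 0.30 in the day 12 lymph node on the log2 scale. The fit that left out low-identity libraries called 6 receptors. For both fits the share of all genes called is not given here, so these receptor counts are description only. Weights per group also called 7 of 8 receptors, but called 8937 of 19738 genes, against 1376 in the fit of all groups. Beside Lilrb4a, the myeloid sum was 547 to 738 TPM in tumor and 189 to 228 TPM at day 12.

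Of 19 genes listed as other inhibitory receptors, 7 rose in tumor and 1 fell, the median being 0.39 against 0.027 for all genes. Lilr4b, which is counted with the list but not taken here as an inhibitory receptor, rose by 4.83 ± 0.79. It could share reads with Lilrb4a, so its rise may not be separate from that of Lilrb4a. Klra3, an inhibitory Ly49 receptor, rose by 4.45 ± 0.96, and Entpd1, which encodes the ectonucleotidase CD39, by 3.93 ± 0.64. Of the transcription factors, 2 rose and 4 fell. Tcf7 fell by 4.90 on the log2 scale to 6.94 TPM in tumor, against 215 TPM at day 12, Nr4a2 rose by 2.98 ± 0.69 and Eomes fell by 2.57. Nr4a genes are known to be induced by enzymatic tissue dissociation as well. How tumors were dissociated is not given here, so for Nr4a2 tissue and dissociation cannot be told apart. Tnfrsf9 (4-1BB) rose by 3.77 ± 0.87 among the costimulatory genes, of which 2 rose and 2 fell, while Cd40lg fell by 2.88 and Icos fell by 2.37. Cblb, a ubiquitin ligase that limits T cell receptor signals, was the 1 gene of 19 phosphatases and adaptors that rose, by 2.01 ± 0.55. Among 16 ligands Apoe rose by 4.0 ± 0.98 and Hmgb1 fell by 1.19. Median changes against day 12 were 0.388 for other inhibitory receptors, 0.516 for ligands, -0.439 for phosphatases and adaptors, 0.014 for costimulatory genes and -0.355 for transcription factors.

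Against spleen, 5 of 8 receptors rose in tumor cells and none fell, where 3.42% of all genes rose and 2.82% fell. Pdcd1 rose by 4.15 ± 0.76 (adjusted p = 0.000539), Lag3 by 3.19 ± 0.33 (adjusted p = 1.15e-07), Havcr2 by 2.85 ± 0.74 (adjusted p = 0.0169), Ctla4 by 2.81 ± 0.58 (adjusted p = 0.00234) and Cd160 by 2.75 ± 0.80 (adjusted p = 0.0336). Tumor and spleen libraries did not overlap for these 5 or for Tigit, which was higher by 2.08 ± 0.77 in tumor (adjusted p = 0.113). Lilrb4a was higher by 1.79 ± 0.78 (adjusted p = 0.205), with the fourth spleen library inside the tumor range, and Btla differed by -0.59 ± 0.72. Both Tigit and Lilrb4a passed without the low-identity libraries (adjusted p = 0.005 and 0.00712), and Tigit also after quantile normalization (0.0157). The receptors' median of 2.78 stood beside -0.028 for all genes. Havcr2 missed the threshold without tumor replicate 2 (adjusted p = 0.0532), spleen replicate 1 (0.0615) or spleen replicate 3 (0.0526). Cd160 missed it without tumor replicates 1, 2 or 3 (0.0739, 0.0788 and 0.0998) or spleen replicates 1, 3 or 4 (0.0889, 0.0616 and 0.0563), and also with a pseudocount of 0.1 (0.255), no filter (0.0642) or scaling to T cell identity (0.193).

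In the same comparison 2 of 19 other inhibitory receptors rose and 2 fell. Pecam1 (CD31) rose by 3.01 ± 0.83, while Siglecg at -3.23 ± 0.72 and Cd22 at -3.20 ± 0.82 fell beside a B cell sum of 150 to 289 TPM in tumor and 1054 to 11478 TPM in spleen. Tox, a factor tied to persistent receptor expression, rose by 3.74 ± 0.61 to 80.5 TPM in tumor, against 6.93 TPM in spleen, Nr4a2 rose by 4.57 ± 0.69, and Tcf7 fell by 3.77, among 2 transcription factors that rose and 3 that fell. The dissociation of tumor and spleen is not given here, so the same limit holds for Nr4a2 as against day 12. Tnfrsf9 rose by 6.36 ± 0.87 and Tnfrsf4 by 4.26 ± 0.78, and Cd40lg fell by 2.73. Ubash3b, a phosphatase that acts on kinases near the T cell receptor, rose by 2.19 ± 0.59 and Cblb by 2.04 ± 0.55, and Pag1, an adaptor, fell by 1.76. Lgals3 fell by 1.82 as the single ligand called. Median changes against spleen were 0.331 for other inhibitory receptors, -0.027 for ligands, 0.041 for phosphatases and adaptors, 0.47 for costimulatory genes and 0.523 for transcription factors.

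**Figure D3:**
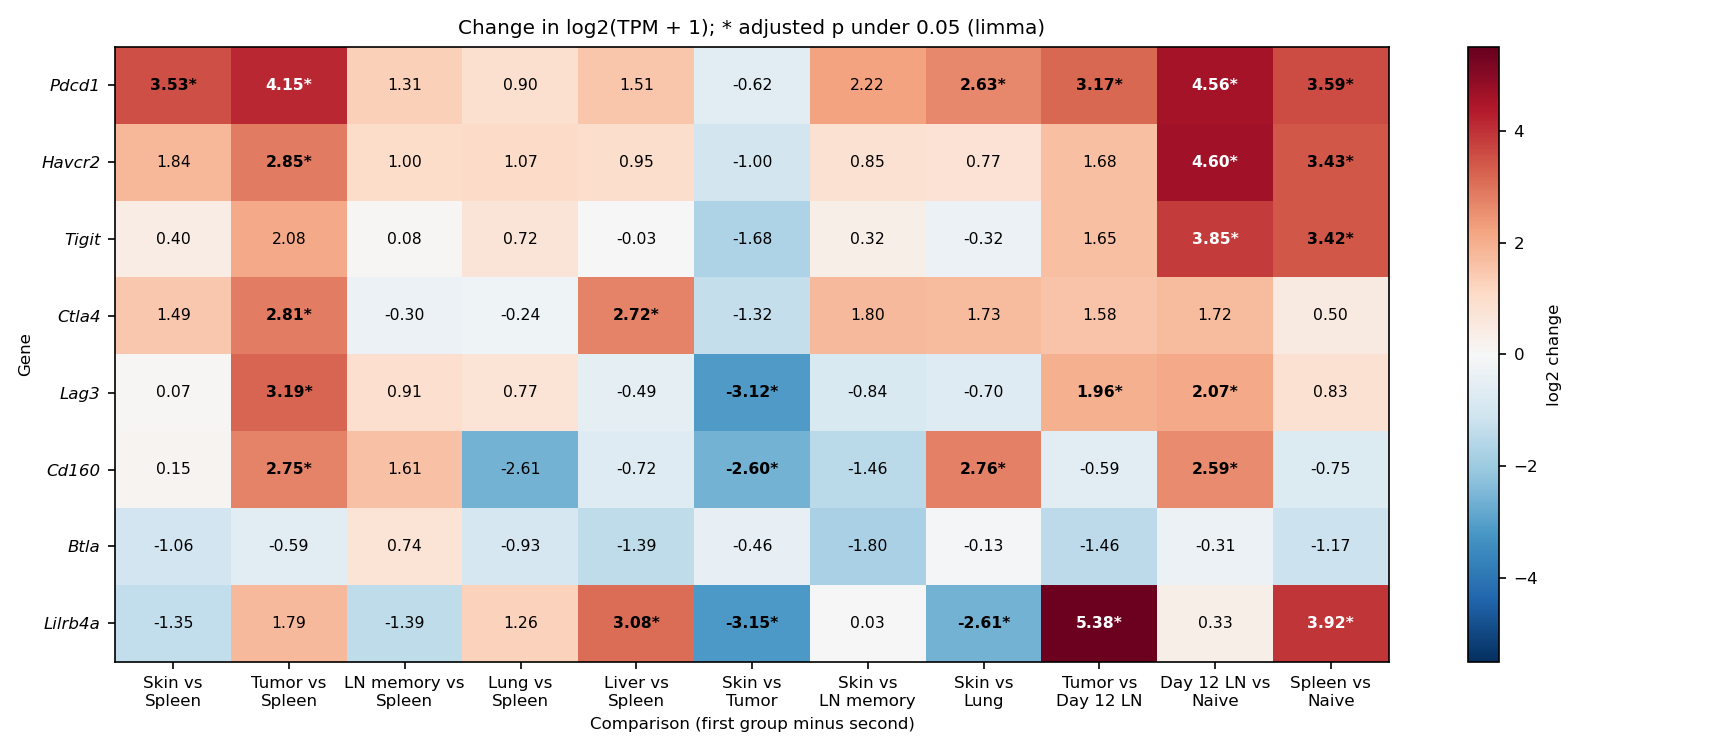
Change of each receptor, in log2(TPM + 1), in 11 comparisons, with the first named group minus the second; colour and number give the change and an asterisk marks an adjusted p under 0.05 in limma. Pdcd1 carried an asterisk in 6 comparisons, and Btla in none, and Lag3 and Cd160 both rose in tumor against spleen and both fell in skin against tumor.

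In skin, Pdcd1 alone of the 8 receptors rose relative to spleen and none fell, where 4.33% of all genes rose and 3.34% fell. Its change was 3.53 ± 0.76 (adjusted p = 0.00257), and the lowest skin library, at 42.7 TPM, was still above the highest spleen library, at 31.3 TPM. Havcr2 was higher by 1.84 ± 0.74 (adjusted p = 0.147) and Ctla4 by 1.49 ± 0.58 (adjusted p = 0.132), while Lag3 differed by 0.07 ± 0.33, Cd160 by 0.15 ± 0.80 and Tigit by 0.40 ± 0.77. Lilrb4a was lower by -1.35 ± 0.78 (adjusted p = 0.3825) and Btla by -1.06 ± 0.72 (adjusted p = 0.494). The receptors' median was 0.27, against -0.121 for all genes. Without skin replicate 4, the library of low T cell identity, Havcr2 and Ctla4 passed as well (adjusted p = 0.0199 and 0.0345), and a fit without all 6 such libraries also called 3 receptors. In a fit of the 8 skin and spleen libraries alone Pdcd1 missed the threshold (adjusted p = 0.0875).

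Transcription factors that control the receptors rose in 10 of 23 cases in skin relative to spleen and fell in 2, with a median of 1.35. Fos rose by 7.57 ± 0.90, Nr4a1, an early target of T cell receptor signals, by 7.48 ± 0.81 to 1700 TPM against 15.0 TPM in spleen, and Nr4a2 by 6.47 ± 0.69. Fos and Nr4a genes are known to be induced by enzymatic tissue dissociation as well, skin was digested with collagenase, and tissue and digestion cannot be told apart. The same limit holds for these genes in the later comparisons of skin. Costimulatory genes rose in 4 of 12 cases, with Tnfrsf9 at 3.82 ± 0.87, Cd40lg at 3.02 ± 0.42 and Icos at 2.99 ± 0.53. Cd22 and Siglecg fell by 3.69 and 3.54 among 19 other inhibitory receptors, beside the B cell sums of 24.3 to 133 TPM in skin and 1054 to 11478 TPM in spleen. None of 16 ligands and none of 19 phosphatases and adaptors passed the test in limma. List medians in skin were -0.303 for other inhibitory receptors, 0.243 for ligands, -0.208 for phosphatases and adaptors, 0.987 for costimulatory genes and 1.345 for transcription factors.

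Skin and tumor had the highest mean levels of Pdcd1 and differed in other receptors. Relative to tumor, 3 of 8 receptors fell in skin and none rose, where 3.54% of all genes fell and 3.79% rose. Lag3 fell by 3.12 on the log2 scale (SE 0.33, adjusted p = 1.42e-07), with all skin libraries at or below 2.65 TPM and all tumor libraries at or above 15.8 TPM. Lilrb4a fell by 3.15 (SE 0.78, adjusted p = 0.00983), beside myeloid sums of 405 to 8627 TPM in skin and 547 to 738 TPM in tumor, and Cd160 fell by 2.60 (SE 0.80, adjusted p = 0.0411). Pdcd1 differed by -0.62 ± 0.76 (adjusted p = 0.768), Havcr2 by -1.0 ± 0.74 (adjusted p = 0.544), Tigit by -1.68 ± 0.77 (adjusted p = 0.224), Ctla4 by -1.32 ± 0.58 (adjusted p = 0.203) and Btla by -0.46 ± 0.72. A median of -1.502, against -0.091 for all genes, was seen over the 8 receptors. The Lag3 call held in every alternative run. The Lilrb4a call was lost without skin replicate 4 (adjusted p = 0.0549) and in a fit of both groups alone (0.0999), and the Cd160 call without skin replicates 1, 2 or 4 (0.0603, 0.0526 and 0.165) or tumor replicates 1, 2 or 3 (0.0932, 0.0908 and 0.116), and scaling to T cell identity left Lag3 alone (Lilrb4a 0.0514, Cd160 0.237). Cd160 was also not called with no filter on low values (0.0768) or a pseudocount of 0.1 (0.301).

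Ratios between 2 genes of a library are not changed by how the library is scaled. They were chosen after the values were seen and carry no test. Relative to Pdcd1, Lag3 stood at 0.149% to 1.83% in skin, with a median of 0.413%, and at 4.07% to 5.01% in tumor, with a median of 4.39%. The Lag3 ratio did not overlap between skin and tumor, and the day 12 lymph node was higher than both at 8.05% to 10.4%. Cd160 stood at 4.21% to 9.60% of Pdcd1 in skin, 23.2% to 37.8% in tumor and 347% to 420% in the day 12 lymph node, so that it exceeded Pdcd1 in the day 12 node and lay below it in skin and tumor. Havcr2 stood at 10.2% to 16.1% of Pdcd1 in skin and 15.7% to 21.3% in tumor, with overlap, and Tigit at 10.03% to 28.8% in skin and 21.5% to 41.5% in tumor, with overlap. As a share of the 8 receptors' summed TPM, Pdcd1 held 54.3% to 73.7% in skin, 44.7% to 50.9% in tumor, 13.2% to 21.6% in spleen and 1.73% to 2.12% in naive cells, where Cd160 held 45.3% to 54.3%.

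**Figure D4:**
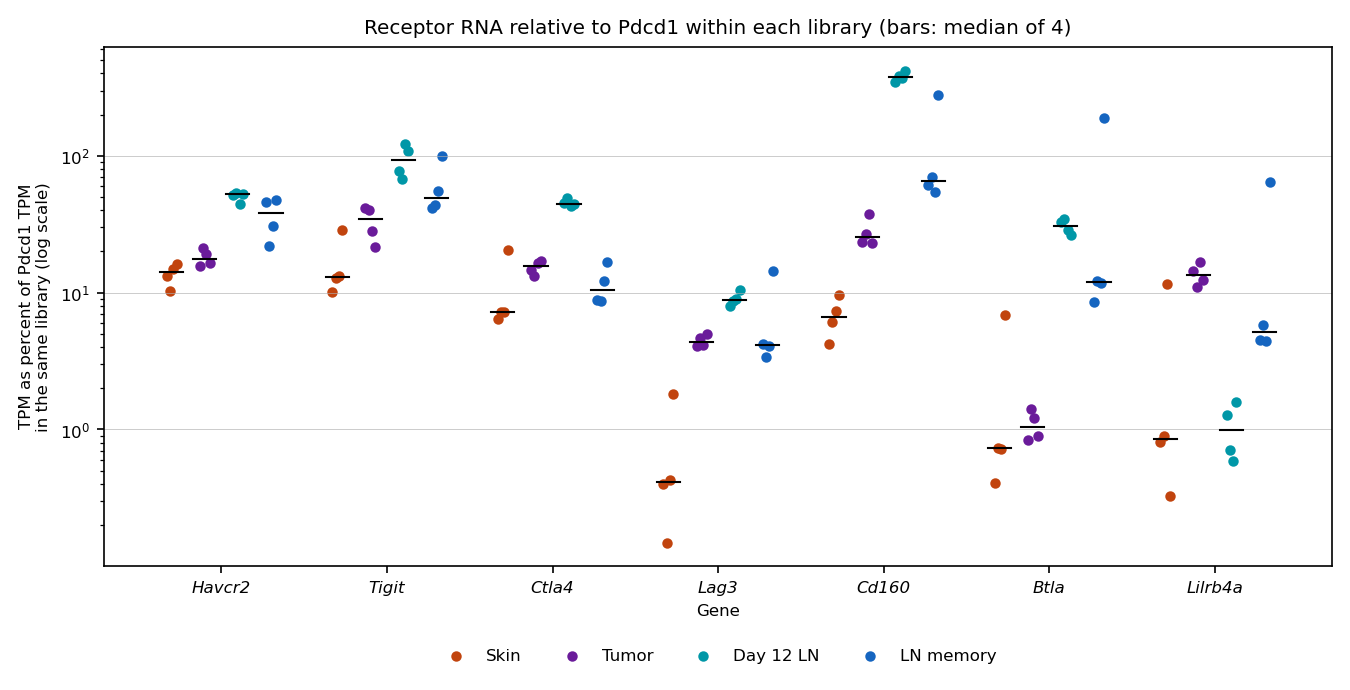
TPM of 7 receptors as a percentage of Pdcd1 TPM in the same library, on a log axis, for skin, tumor, day 12 lymph node and lymph node memory libraries; points are libraries and bars the median of 4. The Lag3 and Cd160 ratios lay lower in all skin libraries than in any tumor library.

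Around the receptors, skin and tumor also differed in regulators. Of 23 transcription factors 9 rose in skin and 2 fell, with Fos higher by 7.55 ± 0.90, Nr4a1 by 6.46 ± 0.81 and Fosb by 5.47 ± 0.48. Tox, which was singled out after its values were seen, fell by 3.31. Cd40lg rose by 5.75 ± 0.42 to 208 TPM in skin, against 2.58 TPM in tumor, Icos rose by 2.66 ± 0.53 and Tnfrsf4 fell by 4.55 among the costimulatory genes. Of 19 phosphatases and adaptors 5 fell and 1 rose: Pag1 rose by 3.06 ± 0.53, while Sh2d1a, the adaptor SAP, fell by 2.79 and Cblb fell by 2.06. Of 19 other inhibitory receptors Cd101 rose by 2.45 ± 0.56 to 60.6 TPM in skin, against 8.83 TPM in tumor, and Pecam1 and Entpd1 fell by 3.49 and 2.64. Apoe and Lgals3 rose by 3.97 ± 0.98 and 2.06 ± 0.55 as the only ligands called. The 10 keratinocyte markers summed to 200 to 3766 TPM in skin and 78.7 to 557 TPM in tumor. Myeloid sums were 405 to 8627 TPM in skin and 547 to 738 TPM in tumor. The part of such RNA in the ligand changes was not tested. By list, skin and tumor differed at the median by -0.309 for other inhibitory receptors, 0.305 for ligands, -0.222 for phosphatases and adaptors, 0.263 for costimulatory genes and 0.896 for transcription factors.

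Skin was then set against lymph node memory cells. None of 8 receptors passed the test in either direction, where 3.18% of all genes rose and 4.31% fell and 4218 genes had an unadjusted p under 0.05. Pdcd1 was higher in skin by 2.22 ± 0.76 (adjusted p = 0.0689) and Ctla4 by 1.80 ± 0.58 (adjusted p = 0.0554), 3 of 4 skin libraries lying above all lymph node memory libraries for both. Lag3 was lower by -0.84 ± 0.33 (adjusted p = 0.129), and Btla and Cd160 were lower in every skin library than in any lymph node memory library, by -1.80 ± 0.72 (adjusted p = 0.133) and -1.46 ± 0.80 (adjusted p = 0.292). The median of the receptors was 0.177, against -0.25 for all genes. Without skin replicate 4, Pdcd1 and Ctla4 passed the threshold (adjusted p = 0.00507 and 0.017). Transcription factors rose, 7 of 23 with none lower, led by Fos at 6.87 ± 0.90, Nr4a1 at 5.66 ± 0.81 and Fosb at 4.94 ± 0.48. The phosphatase gene Ptpn6, which encodes SHP-1, fell by 1.77 and Dok1, an adaptor, fell by 1.70 among 19, Cd22 and Siglecg fell by 4.17 and 2.48, and the ligands Apoe and Pvrl2 (nectin-2, a TIGIT ligand) rose by 3.85 ± 0.98 and 1.33 ± 0.37. Beside these ligands, 10 keratinocyte markers summed to 200 to 3766 TPM in skin and 18.6 to 108 TPM in lymph node memory. Myeloid sums were 405 to 8627 TPM and 368 to 935 TPM. The part of such RNA in the ligand changes was not tested. None of 12 costimulatory genes was called. Relative to lymph node memory the medians were -0.314 for other inhibitory receptors, 0.281 for ligands, -0.69 for phosphatases and adaptors, -0.171 for costimulatory genes and 0.447 for transcription factors.

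Against lung, another tissue taken 45 days after surgery, Pdcd1 and Cd160 rose in skin and Lilrb4a fell, where 2.83% of all genes rose and 1.82% fell. Pdcd1 rose by 2.63 ± 0.76 (adjusted p = 0.0388), Cd160 by 2.76 ± 0.80 (adjusted p = 0.0395), and Lilrb4a fell by 2.61 (SE 0.78, adjusted p = 0.0497). The skin and lung ranges overlapped for all 3, since the fourth skin library was low for Pdcd1 and Cd160 and the third was high for Lilrb4a, with myeloid sums of 405 to 8627 TPM in skin and 1714 to 11682 TPM in lung. Receptors had a median of 0.324, against -0.171 for all genes. Each of these calls depended on single libraries: Pdcd1 missed the threshold without skin replicates 1, 2 or 3 (adjusted p = 0.149, 0.123 and 0.0915) or lung replicates 2, 3 or 4 (0.129, 0.0857 and 0.0756). Cd160 missed it without skin replicates 1, 2 or 3 (0.111, 0.115 and 0.0961) or lung replicates 2 or 3 (0.146 and 0.141), and Lilrb4a without skin replicates 1, 2 or 4 (0.112, 0.105 and 0.262) or lung replicates 3 or 4 (0.127 and 0.155). Ctla4, higher by 1.73 ± 0.58 (adjusted p = 0.0904), passed it without skin replicate 4 (0.022) or lung replicate 1 (0.0301). Of the transcription factors 7 of 23 rose, led by Nr4a1 at 5.94 ± 0.81, Nr4a2 at 5.11 ± 0.69 and Nr4a3 at 4.95 ± 0.47, and Tnfrsf9, Icos and Cd40lg rose by 2.96 ± 0.87, 2.47 ± 0.53 and 1.78 ± 0.42 among 12 costimulatory genes. Pvrl2 rose by 1.26 ± 0.37, and no other inhibitory receptor and no phosphatase or adaptor was called. Keratinocyte sums were 200 to 3766 TPM in skin and 21.5 to 75.2 TPM in lung, and their part in the Pvrl2 change was not tested. Relative to lung the medians were -0.193 for other inhibitory receptors, 0.041 for ligands, -0.278 for phosphatases and adaptors, 0.375 for costimulatory genes and 0.719 for transcription factors.

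Lymph node memory and lung cells showed no called receptor relative to spleen. In lymph node memory cells 0.36% of all genes rose and 0.122% fell, with 1916 at an unadjusted p under 0.05. Lag3 and Cd160 were higher in every lymph node memory library than in any spleen library, by 0.91 ± 0.33 (adjusted p = 0.298) and 1.61 ± 0.80 (adjusted p = 0.524), and Pdcd1 was higher by 1.31 ± 0.76 (adjusted p = 0.599). Lilrb4a was lower by -1.39 ± 0.78 (adjusted p = 0.592) and Ctla4 by -0.30 ± 0.58 (adjusted p = 0.879). In lung 0.0507% of all genes rose and 0.0608% fell, with 1457 at an unadjusted p under 0.05, and the largest receptor difference was that of Cd160, lower by -2.61 ± 0.80 (adjusted p = 0.287), with 1 lung library listed at 0. Leaving out the 6 libraries low in T cell identity, Lag3 passed in lymph node memory (adjusted p = 0.0427) and Cd160 in lung (0.0111). Cd40lg rose by 2.18 ± 0.42 in lymph node memory cells and was the single gene called in the 5 lists over both comparisons. In lymph node memory cells the receptors' median was 0.825, against 0.166 for all genes, and list medians were 0.067 for other inhibitory receptors, -0.095 for ligands, 0.689 for phosphatases and adaptors, 0.919 for costimulatory genes and 0.702 for transcription factors. In lung the receptors' median was 0.745, against 0.043 for all genes, and list medians were 0.151 for other inhibitory receptors, 0.409 for ligands, 0.186 for phosphatases and adaptors, 0.341 for costimulatory genes and 0.305 for transcription factors.

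In liver, 2 of 8 receptors rose relative to spleen and none fell, where 2.45% of all genes rose, 11.1% fell and the median of all genes was -0.53. Ctla4 rose by 2.72 ± 0.58 (adjusted p = 0.00366), with 30.9 TPM in the lowest liver library and 11.7 TPM in the highest spleen library. Lilrb4a rose by 3.08 ± 0.78 (adjusted p = 0.0116), with overlap, beside the myeloid sums of 1978 to 17779 TPM in liver and 910 to 9408 TPM in spleen. Pdcd1 was higher by 1.51 ± 0.76 (adjusted p = 0.159) through its first library. Btla was lower by -1.39 ± 0.72 (adjusted p = 0.173). Havcr2 differed by 0.95 ± 0.74, Tigit by -0.03 ± 0.77, Lag3 by -0.49 ± 0.33 and Cd160 by -0.72 ± 0.80. Lilrb4a missed the threshold without liver replicate 2 (adjusted p = 0.0517), and with low-identity libraries left out, which leaves 1 liver library assumed to vary like the other groups, its change was 1.92 ± 0.92 (adjusted p = 0.232) and that of Ctla4 5.12 ± 0.68 (adjusted p = 6.99e-05). A fit of the 8 libraries alone called neither gene (Ctla4 0.36, Lilrb4a 0.387). Transcription factors rose in 7 of 23 cases with 1 lower, led by Fos at 6.98 ± 0.90, Nr4a1 at 5.90 ± 0.81 and Nr4a2 at 4.89 ± 0.69. Liver, like skin, was digested with collagenase, so for these genes tissue and digestion cannot be told apart. Apoe, Clec4g and Fgl1 rose by 4.41 ± 0.98, 4.20 ± 0.70 and 3.00 ± 1.02 among the ligands. Fgl1 is known from hepatocytes and Clec4g from liver endothelium, and 10 hepatocyte markers summed to 798 to 33316 TPM in liver and 50.1 to 351 TPM in spleen. Icos rose by 1.89 ± 0.53, and Cd27 and Tnfrsf14 fell by 1.32 and 1.31. Lilr4b, which could share reads with Lilrb4a and is not taken here as an inhibitory receptor, rose by 3.88 ± 0.79. Siglecg fell by 2.38, and Csk and Bag6 fell by 1.45 and 1.06. The liver median of the receptors was 0.459, and list medians were -0.342 for other inhibitory receptors, 0.172 for ligands, -0.331 for phosphatases and adaptors, 0.072 for costimulatory genes and 0.043 for transcription factors.

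The comparisons share libraries, since every group except liver enters more than 1 of them, so their results are given side by side and not as independent. The genes most like each receptor, by Pearson correlation of the 8 group means of log2(TPM + 1) among 7274 genes, are given as a description. Pdcd1 was most like Xcl1, a chemokine gene (0.97), Havcr2 (0.97) and Ifng (0.95). Havcr2 was most like Tigit (0.97), Pdcd1 (0.97) and Plscr1 (0.96), and Tigit like Havcr2 (0.97), Plscr1 (0.97) and Sept11 (0.97). Lag3 was closest to Pfkp (0.94), Il10ra (0.94) and Vmp1 (0.92), and Ctla4 to Serpinb9 (0.94), Got1 (0.92) and Stard4 (0.88). Cd160 was closest to Mphosph6 (0.95), Abcb8 (0.92) and Cdca7l (0.92), and Btla to Zc3h18 (0.99), Chtop (0.98) and R3hcc1l (0.98). Lilrb4a was closest to Lilr4b (0.98), Fcer1g (0.96) and S100a8 (0.95), the last 2 being myeloid markers of the list used here. All group means come from the same 32 libraries.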

How the data were processed

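Gene expression was measured by RNA sequencing of sorted CD8+ Thy1.1+ Pmel T cells in 32 libraries, 8 groups of 4, grouped by the submitters' labels. Skin was digested with collagenase, lung with Liberase, liver with collagenase after meshing, and lymph nodes were dissociated mechanically, per the labels' protocols. Reads were aligned with Bowtie to mm10, per the submitters' processing notes. For the aligner version, the annotation, strandedness and quantification, no statement was found in the sources used here.

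The authors deposited a table of the natural log of TPM + 1, as the values themselves show: converted back, they are multiples of 0.01 TPM, with a largest deviation of 4.5e-09 TPM, and sum to 999999.06 to 1000000.8 per library. Counts and depth are not known, so no counting interval can be given. The number of genes above 0 ran from 10732 to 34211 per library. Every column belonged to a sample, and no 2 libraries were identical. Of the gene names, 40395 (86.8%) matched symbols of the GENCODE M21 annotation, from which coordinates were taken.

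The design had allowed for counts or normalized values, and the form for normalized values was used. TPM + 1 (pseudocount 1) was converted to log2, and the test covered 19738 genes that reached 1 TPM in at least 4 libraries. A single fit of all groups was made with limma 3.58.1 in R 4.3.3 (trend of variance with abundance, 24 residual degrees of freedom), with Benjamini-Hochberg adjustment over all tested genes in each of 11 comparisons and in the moderated F test, and a threshold of 0.05. The fit was tested on simulated data. Python 3.11.15, NumPy 2.4.6, pandas 2.3.3 and Matplotlib 3.10.9 were used for the rest.

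The receptors and the gene lists were chosen with earlier results of these data known. By rule, the text names the 8 receptors, at most 3 called genes per list and comparison by size of change, and the 3 genes most like each receptor, and exceptions are named as such. One of the 20 listed other inhibitory receptors, Pvrig, was not analysed here. Lilr4b is counted with that list, though it is not taken here as an inhibitory receptor. The alternatives tried were a pseudocount of 0.1, a filter at 5 TPM (12471 genes) or none, fits restricted to the 2 groups compared, weights per group, a replicate block, each library left out, the 6 libraries of low T cell identity left out, quantile normalization, and scaling to the T cell identity sum.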

Additional observations from a re-analysis of the deposited data

Results flagged for a closer look

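Dixon's test for an outlying sample was applied to each receptor in each group, 64 in all, and marked 8 values, in 6 libraries, that stood apart from the other 3 of their group. Chance marks about 1 in 20 groups. Pdcd1 was 16.7 TPM in lymph node memory replicate 4, below 92.6 to 107 TPM in the others. Liver replicate 1 had 517 TPM of Pdcd1, above 23.9 to 73.0 TPM, and 326 TPM of Ctla4, above 30.9 to 42.6 TPM. Tigit was 12.3 TPM in skin replicate 4, below 64.2 to 73.7 TPM. In day 12 lymph node replicate 4, Ctla4 was 18.8 TPM, below 23.9 to 24.6 TPM, and Btla was 11.2 TPM, below 16.5 to 17.4 TPM. Btla was 17.1 TPM in liver replicate 4, above 0 to 2.61 TPM. Lilrb4a was 55.3 TPM in skin replicate 3, above 0.14 to 5.37 TPM.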

How the results depend on the processing

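Of 46 receptor changes with an unadjusted p under 0.05, none reversed in direction under any alternative, 26 passed the threshold, and 15 of these passed it under all alternatives and left-out libraries. The number of receptors called depended on the setting as follows, and the cause was not tested. With only the groups compared it was 0 of 8 for skin against spleen (1 in the fit of all groups), 0 for liver against spleen (2), 1 for skin against lymph node memory (0), 0 for skin against lung (3) and 7 for tumor against the day 12 lymph node (3). With weights per group 8937 of 19738 genes were called for tumor against day 12. In that setting the receptor counts were 0 for liver against spleen and 3 for skin against lymph node memory. They were 1 for skin against lung and 7 for tumor against day 12. Without libraries of low T cell identity they were 3, 1, 1 and 7 (5) for skin, lymph node memory, lung and tumor against spleen. For these, that setting called 3251, 2303, 894 and 2679 of 19738 genes. It gave 4 for skin against lymph node memory and 6 for tumor against day 12. For these 2 the share of all genes called is not given here, so their receptor counts are description only. Quantile normalization gave 3 for skin against spleen, 2 for skin against lymph node memory and 5 for tumor against day 12. Scaling to T cell identity gave 1 for skin against tumor and 2 for skin against lymph node memory. No filter and a pseudocount of 0.1 each gave 0 for skin against lung. The same pseudocount gave larger changes for receptors near 0 in naive cells, 7.14 for Havcr2 and 3.59 for Lag3 at day 12 and 5.89 for Havcr2 in spleen. With 1 library left out, the counts ranged from 1 to 3 for skin against spleen, 3 to 5 for tumor against spleen, 0 to 0 for lymph node memory and for lung against spleen, 1 to 3 for liver against spleen, 1 to 3 for skin against tumor, 0 to 2 for skin against lymph node memory, 0 to 4 for skin against lung, 3 to 3 for tumor against day 12, 4 to 4 for day 12 against naive (5 with all libraries, and 4 to 7 over the other settings), 4 to 4 for spleen against naive, and 8 to 8 for the F test (7 with scaling to T cell identity).

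With the replicate block the count was 2 for skin against lymph node memory, Pdcd1 (adjusted p = 0.0377) and Ctla4 (0.0402). In the 11 comparisons, correlations of same-numbered libraries ran from -0.393 to 0.467, with at least 1 at or under 0.1 in each. By that cutoff the numbers were not taken to pair their libraries, which does not show that they are unpaired. Replicate 4 had the most genes above 0 in spleen, lymph node memory, skin, lung and liver (29085, 32843, 34211, 30475 and 23612). Whether same-numbered libraries share a mouse or a processing run was not tested. Between lung and liver, which were not compared, all 4 were over 0.1 (0.112 to 0.494).

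Counts over all genes moved more, with the fit of all groups first and then the lowest and highest over the settings: 1515, 271 and 3251 for skin against spleen, 1233, 547 and 2679 for tumor against spleen, 95, 4 and 2303 for lymph node memory against spleen, 22, 0 and 894 for lung against spleen, 2681, 0 and 3118 for liver against spleen, 1448, 672 and 2783 for skin against tumor, 1477, 422 and 2657 for skin against lymph node memory, 918, 60 and 1869 for skin against lung, 1376, 320 and 8937 for tumor against day 12, 2189, 1097 and 11201 for day 12 against naive, 1201, 975 and 4348 for spleen against naive, and 9259, 4416 and 15135 for the F test. The share of calls that were higher was 18.1% for liver against spleen, 55.3% after quantile normalization and 88.0% after scaling to T cell identity, which moved the median of all genes to -0.076 and 0.018 from -0.53. Scaling to T cell identity moved the median of all genes to -0.256 for tumor against spleen, -0.199 for lymph node memory against spleen, 0.146 for skin against tumor, 0.14 for skin against lymph node memory, 0.195 for tumor against day 12 and -0.007 for day 12 against naive. It gave 96.8% for spleen against naive (59.5% before, with a median of 0.595), 82.9% for day 12 against naive (53.7%), 83.9% for skin against lymph node memory (42.5%, and 55.9% by quantile), 77.2% for skin against tumor (51.7%), 77.5% for tumor against day 12 (65.3%, and 48.2% by quantile), 37.3% for tumor against spleen (54.8%), 52.9% for lymph node memory (74.7%, and 63.0% by quantile), 60% for lung (45.5%) and 67.2% for skin (56.4%) against spleen. Quantile normalization gave 48.2% for spleen against naive. Unknown depth limits what can be said of values near 0, such as Lag3 in liver and Cd160 in lung.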
